A study of Mus musculus with 80 samples.

Results

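The genes described here mark the projection neurons of the striatum, the forebrain region that receives most of the brain's dopamine. They were followed through brain, heart, kidney, liver and lung of mice with and without a serum carboxylesterase. The set named 7 genes: the peptide precursors Penk, Tac1 and Pdyn, the receptors Drd2 and Adora2a, and the signalling genes Ppp1r1b and Rgs9. A gene was taken from array probe sets whose annotation names exactly 1 gene, and where several name it, the one with the highest average signal across the 80 arrays was used. Of the 7 genes, 6 were measured in this way, out of 17097 genes in all. Adora2a was not analysed here.

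RNA of untreated mice was measured on Affymetrix expression arrays (type HT MG-430 PM). The mice were of a C57BL/6 background and carried either the genotype WT or the genotype labelled Es-1 KO (KO below), the loss of the plasma carboxylesterase gene Ces1c. Each genotype was sampled in females and males, which gave 4 arrays for each of 20 groups of genotype, sex and organ, and 8 per genotype in each organ. The 80 arrays came from 23 numbered mice, 12 KO and 11 WT, and 16 of them gave a brain; their ages, and whether a brain was whole or in part, are not given in the sources used here. The study's title names the KO mice as a behavioural model for nerve agent intoxication, and the comparison of KO with WT asks how the tissues of such a mouse differ before any exposure.

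The neurons of the striatum fall into 2 main classes that use GABA and that differ in dopamine receptor and in peptide. Neurons of the indirect pathway carry the D2 receptor and an adenosine receptor encoded by Adora2a and make enkephalin, and neurons of the direct pathway carry the D1 receptor and make substance P and dynorphin. Both classes contain DARPP-32, the product of Ppp1r1b, and the G protein regulator Rgs9. These genes are much higher in striatum than in most other brain regions, so the striatal share of a piece of brain bears on their level in it.

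Several arrays stood apart from their labels or from their group. Ces1c in liver, which checks the genotype, was 12.11 to 12.63 in the WT livers and 9.70 to 10.17 in 7 KO livers, all on the log2 scale, but 12.04 in the liver of the male labelled KO 952. The heart of KO female 994 carries the tissue label lung, while its lung marker genes averaged 3.55, as low as in most hearts, and its title says heart. Lung markers were high in the hearts of KO female 781 and KO male 964, with means of 5.76 and 6.06, and liver markers in those of KO female 982, KO male 962 and WT male 903, with means of 8.06, 8.14 and 10.20. Among the brains, WT male 902 and WT male 903 were low for striatal genes and WT female 1265 was low for cerebellar genes, so the KO minus WT differences and the correlations in brain are given with and without them.

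The 6 genes lie on 5 autosomes: Penk on chromosome 4, Tac1 on 6, Pdyn on 2, Drd2 on 9, and Ppp1r1b and Rgs9 on 11. The 250 bases before the start site are shown for 4 of them, because the genes moved together between brains and their promoters are where common letters could be looked for. The sequences are RefSeq's of build GRCm38.p6, each read 5′ to 3′ along its gene, and were matched by symbol for Tac1, Pdyn, Drd2 and Rgs9. Pdyn has 2 start sites in that table, and the one at the start of the annotated gene is printed. Capitals mark the GC box, which reads GGGCGG, the TATA motif, which reads TATAAA, or the core of the CREB site, which reads TGACG, each searched on both strands; the core also lies within the full CREB site.

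Tac1 (substance P precursor), chr6:7554811-7555060, plus strand: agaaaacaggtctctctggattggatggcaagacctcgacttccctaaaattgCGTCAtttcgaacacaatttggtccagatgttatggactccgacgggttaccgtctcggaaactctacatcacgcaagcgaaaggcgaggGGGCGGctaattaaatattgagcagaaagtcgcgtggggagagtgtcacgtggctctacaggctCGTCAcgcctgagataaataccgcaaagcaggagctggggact
Pdyn (dynorphin precursor), chr2:129699939-129700188, minus strand: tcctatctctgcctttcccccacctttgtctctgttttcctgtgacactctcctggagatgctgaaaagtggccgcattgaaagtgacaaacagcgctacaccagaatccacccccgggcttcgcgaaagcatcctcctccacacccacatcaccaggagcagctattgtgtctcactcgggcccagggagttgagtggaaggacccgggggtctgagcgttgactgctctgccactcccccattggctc
Drd2 (D2 dopamine receptor), chr9:49340153-49340402, plus strand: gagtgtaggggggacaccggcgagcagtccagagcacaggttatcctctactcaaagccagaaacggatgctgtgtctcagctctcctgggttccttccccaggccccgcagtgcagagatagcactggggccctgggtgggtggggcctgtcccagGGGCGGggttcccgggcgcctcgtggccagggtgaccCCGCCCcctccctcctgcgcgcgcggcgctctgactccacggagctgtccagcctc
Rgs9 (G protein regulator), chr11:109298182-109298431, minus strand: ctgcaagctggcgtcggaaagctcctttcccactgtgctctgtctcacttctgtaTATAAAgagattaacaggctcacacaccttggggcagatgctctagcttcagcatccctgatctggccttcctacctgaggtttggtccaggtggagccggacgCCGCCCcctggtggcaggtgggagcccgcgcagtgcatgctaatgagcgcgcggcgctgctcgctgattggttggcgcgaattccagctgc

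The 4 stretches had no motif in common. Tac1 held 2 core sites, with their first bases at -197 and -43 from the start site, and a GC box at -107. Drd2 held GC boxes at -93 and -56, Rgs9 a TATA motif at -195 and a GC box at -91, and the Pdyn stretch none of the motifs searched. In all 32851 promoters of the table, each of 300 bases reaching 50 past the start site, a core site was found in 20.81%, a GC box in 35.66% and a TATA motif in 13.62%. The full CREB site TGACGTCA, found in 1.79% of all promoters, and the AP-1 motif TGANTCA, found in 7.81%, were in 0 of the 5 entries for these genes. These are matches of letters, not measured binding sites.

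In brain the 6 genes were higher on average in KO than in WT, but the difference passed the test for no gene. Without 2 low WT brains, males 902 and 903, the median difference of the 6 fell from 0.40 to 0.07, while Ppp1r1b kept 0.29. These brains were picked for their low values in the 6 genes and both are WT. Smaller differences were therefore built into each fit without them. The comparison used limma over all 17097 genes, with p-values adjusted by Benjamini-Hochberg and a threshold of 0.05. Of the 6 genes 0 were called, against 0% of all genes, and the same holds without the 2 low brains. In 1 fit of all 80 arrays, which shares the spread between organs, 13 genes were called in brain, and 14 with the animal as a block as well, 0 of the 6 among either. At an unadjusted p under 0.05 stood 1 of the 6, as did 5.97% of all genes, 4.1% higher and 1.87% lower in KO. Differences below are KO minus WT on the log2 scale, averaged over the sexes. Fewer cells of a type in the piece of tissue and less RNA per cell cannot be told apart in bulk samples such as these.

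Among the peptide genes, Penk, the precursor of the enkephalins, was lowest at 10.89, at a median of 11.01 and highest at 11.17 in the 8 KO brains. In the 8 WT brains its lowest level was 9.77, its median 10.79 and its highest 11.32. The KO brains therefore lay inside the WT range, with an SD of 0.09 against 0.59. The mean difference was 0.34 (SE 0.16, limma adjusted p = 0.83), and 0.06 (SE 0.11) without WT male 902 and 903.

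Tac1, the precursor of substance P and neurokinin A, ranged from 8.43 over a median of 8.92 to 9.41 in KO brains. In WT brains it ranged from 7.52 over a median of 8.49 to 9.65, again enclosing the KO values. The difference was 0.36 (SE 0.24, limma adjusted p = 0.845), and 0.09 (SE 0.24) without the pair of low brains. Pdyn, the dynorphin precursor, was the dimmest probe set of the 6 in brain and spread widely in both genotypes, from 4.04 over 4.87 to 5.70 in KO and from 3.70 over 4.15 to 5.59 in WT. Its difference was 0.37 (SE 0.31, limma adjusted p = 0.867), and 0.03 (SE 0.30) without that pair.

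Drd2, the receptor through which dopamine inhibits indirect pathway neurons, ranged from 6.31 over a median of 6.53 to 7.29 in KO brains. In WT brains it ranged from 5.07 over 6.27 to 7.28, so that only the lower end differed. The difference was 0.44 (SE 0.25, limma adjusted p = 0.835), and 0.09 (SE 0.22) without WT male 902 and 903.

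Ppp1r1b, whose product DARPP-32 inhibits protein phosphatase 1 once protein kinase A has phosphorylated it, had the largest difference of the 6. Its KO values ran from 8.78 over a median of 8.91 to 9.32, and its WT values from 7.30 over 8.61 to 9.32. All 8 KO brains were above 6 WT brains and the ranges overlapped only with WT female 1265 and WT male 901. The difference was 0.59 (SE 0.20, limma adjusted p = 0.733), the 1 of the 6 with an unadjusted p under 0.05. It was 0.29 (SE 0.16) without WT male 902 and 903, 0.77 (SE 0.13) without WT male 901, and 0.58 (SE 0.21) without KO male 952.

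Rgs9, which speeds the end of G protein signals behind dopamine and opioid receptors, ranged from 6.69 over a median of 6.85 to 7.40 in KO brains and from 4.61 over 6.57 to 7.66 in WT brains. Its spread over the WT brains was the widest of the 6 genes, while the KO brains had an SD of 0.26. The difference was 0.53 (SE 0.30, limma adjusted p = 0.834), and 0.04 (SE 0.20) without the low pair. Without WT female 1265 alone, the differences were 0.40 for Penk, 0.49 for Tac1, 0.56 for Pdyn, 0.54 for Drd2, 0.67 for Ppp1r1b and 0.66 for Rgs9. Without all 3 brains that stood apart they were 0.12, 0.22, 0.21, 0.19, 0.37 and 0.17 in the same order, and 0 of 6 were called either way. Tac1 and Rgs9 have other probe sets on the array, 1 and 2 respectively, which stayed at or below 3.66 in every brain and followed none of this.

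**Figure D1:**
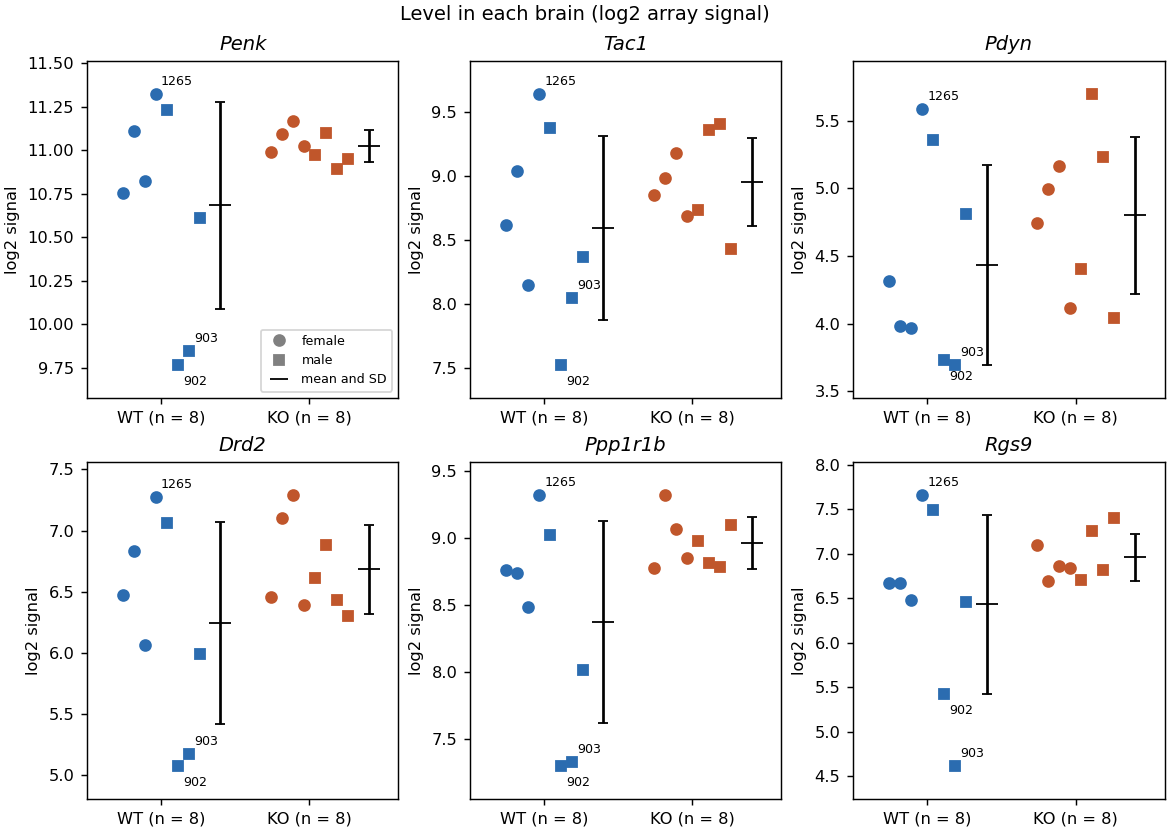
Log2 signal of the 6 genes in each of the 16 brains, by genotype and sex, with the mean and SD of 8 brains beside each genotype. Numbers name WT males 902 and 903 and WT female 1265; the Penk values of WT male 902 and 903, 9.77 and 9.85, lie below the other 14 brains, which start at 10.61.

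WT males 902 and 903 were the lowest 2 of the 16 brains for all 6 genes. Penk read 9.77 and 9.85 in them, Ppp1r1b 7.30 and 7.33, and Drd2 5.07 and 5.17. Tac1 read 7.52 and 8.05, Pdyn 3.73 and 3.70, and Rgs9 5.43 and 4.61. Against the median of the other 14 brains, the differences ran from -0.87 (Tac1 in 903) to -2.21 (Rgs9 in 903). The pair was singled out by these values, so this is a description; over all genes, 399 of 17097 (2.33%) had both of these brains below the other 14.

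Genes outside the set showed how far the low pair reached. Of 28 other genes of striatal projection neurons, 15 (53.6%) were below all 14 other brains in both. Drd1, the D1 receptor, was 4.21 and 3.67 there against 5.70 to 7.57 elsewhere, and the mean of the 28 genes was 6.51 and 6.35 against 6.89 to 7.43. Markers shared by all neurons were 11.01 and 11.13 against 11.02 to 11.19, just below the other 14 brains in 902 and inside the range in 903. Cerebral cortex markers, at 7.49 and 7.18 against 7.17 to 7.91, were inside the range in both. WT male 903 alone was also below the other 14 brains for thalamus markers (6.54 against 6.73 to 7.40), hippocampus markers (6.05 against 6.11 to 6.64) and microglia markers (6.77 against 7.01 to 7.40), where WT male 902, at 7.26, 6.71 and 7.09, was not. Midbrain dopamine neuron markers averaged 5.73 and 5.571 against 4.98 to 5.5635 in the other brains, so that 903 was only just above them. Of these 10 genes, 0 were above all 14 other brains in both. Hypothalamus markers averaged 4.31 and 3.90 against 4.03 to 5.09. Cerebellum markers averaged 8.31 and 9.46 against 5.54 to 9.44, just above the range in 903. How these brains were dissected is not given in the sources used here, and its part in the low values was not tested.

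**Figure D2:**
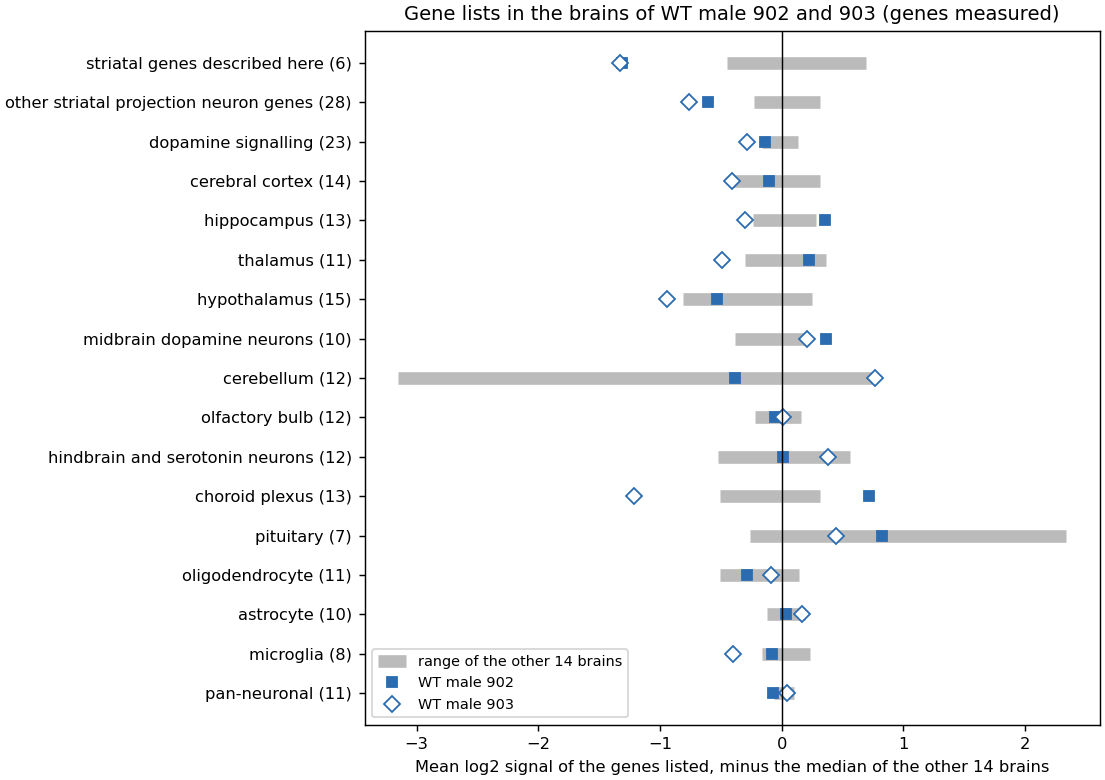
Mean log2 signal of marker lists in the brains of WT male 902 (filled squares) and WT male 903 (open diamonds), as a difference from the median of the other 14 brains, whose range is the grey bar; the number of genes measured stands in brackets. The 6 genes described here lie 1.31 and 1.33 below the median and the other striatal genes 0.61 and 0.76 below it.

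At the other end, WT female 1265 was among the highest 2 brains for 6 of 6 genes, with Penk at 11.32, Tac1 at 9.65 and Rgs9 at 7.66. This brain too was singled out by its values. How many of all genes had it among the highest 2 was not counted, so this is a description. In this brain 11 of 12 cerebellum genes were lower than in every other brain, against 5.31% of all genes. Gabra6, a GABA receptor subunit of cerebellar granule cells, was 3.64 against at least 9.28 elsewhere, and Pcp2, a Purkinje cell gene, 3.75 against at least 9.75. Cbln3, another granule cell gene, was 4.14 against at least 8.87. WT male 901, with the next lowest cerebellum mean (7.88), was also high for the 6 genes, at 11.23 for Penk and 7.49 for Rgs9. Whether less cerebellum in the sample accounts for the higher striatal values was not tested.

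The 6 genes rose and fell together from brain to brain. The set was chosen with earlier results of these data known, so the p-values here are no independent test of it. After the mean of each genotype and sex was removed, the 15 pairs of genes correlated over the 16 brains with Pearson r from 0.65 to 0.92, median 0.81, and Spearman rho from 0.57 to 0.90. All 15 passed a permutation test with Benjamini-Hochberg adjustment over the 15 pairs, by either measure. The test shuffles brains across groups as if all spread alike, but the SD of Penk was 0.69 in WT males and 0.09 in KO males. Its p-values may therefore be too small. The closest were Penk and Ppp1r1b (r = 0.92, permutation p = 3e-05, adjusted 6.4e-05; rho = 0.79, permutation p = 0.00045, adjusted 0.0011) and Penk and Drd2 (r = 0.92, permutation p = 1e-05, adjusted 3.7e-05; rho = 0.90, permutation p = 3e-05, adjusted 0.00015). The loosest was Ppp1r1b with Pdyn (r = 0.65, permutation p = 0.0037, adjusted 0.0040; rho = 0.58, permutation p = 0.022, adjusted 0.023). Without the 2 brains farthest from the median of the first gene, 11 of 15 pairs passed, with r from 0.31 to 0.85. The pairs that no longer passed were Ppp1r1b with Tac1 and with Pdyn, and Rgs9 with Tac1 and with Pdyn.

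Since WT males 902 and 903 lie apart, the same correlations were taken in the other 14 brains. There r ran from 0.43 to 0.88 and 13 of 15 pairs passed the permutation test. Without WT female 1265 as well, 7 of 15 passed over 13 brains, with r from 0.14 to 0.84, and Penk with Drd2 (r = 0.84) and Drd2 with Tac1 (r = 0.79) were among them. The 8 WT brains alone gave r from 0.81 to 0.98 with 15 of 15 passing. The 8 KO brains alone gave r from -0.27 to 0.94 with 2 of 15 passing, the direct pathway peptides Tac1 and Pdyn (r = 0.94, permutation adjusted p = 0.015) and the indirect pathway genes Penk and Drd2 (r = 0.87, permutation adjusted p = 0.047). The difference between genotypes in these correlations was not tested, and the KO brains spread less.

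**Figure D3:**
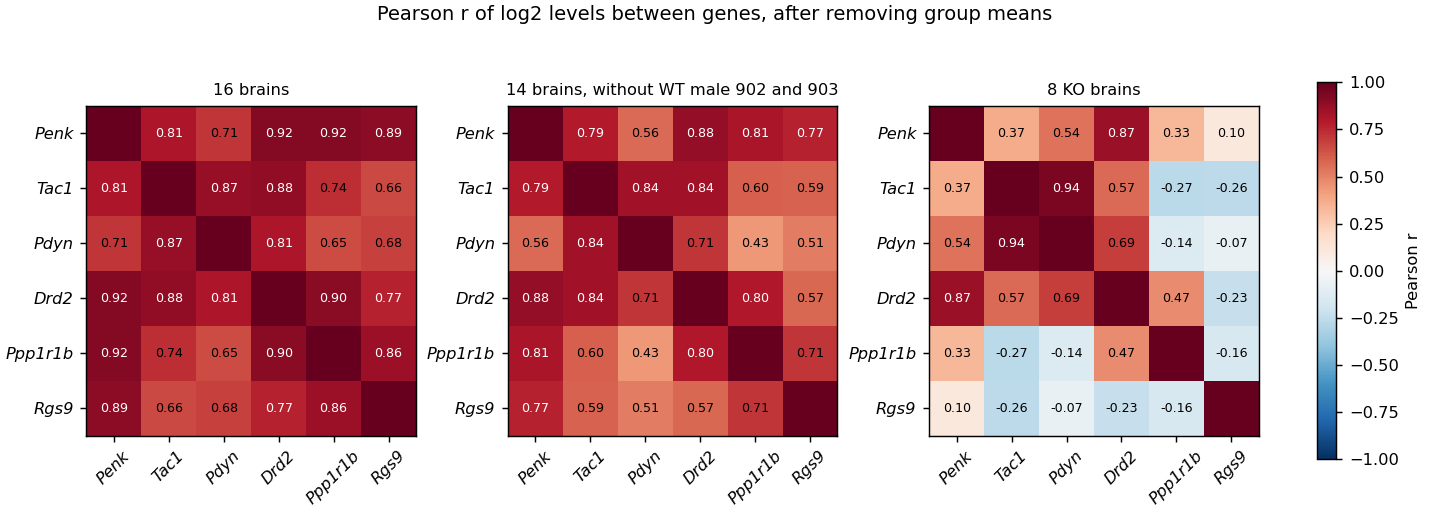
Pearson r between the 6 genes over 16 brains, over 14 brains without WT male 902 and 903, and over the 8 KO brains, from log2 levels after removal of group means. Values run from 0.65 to 0.92, from 0.43 to 0.88 and from -0.27 to 0.94.

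Each gene of the set was also ranked by likeness among all 17096 other genes. By Pearson r over the 16 brains, Penk had Ppp1r1b at rank 2 and Drd2 at rank 3, Drd2 had Penk at rank 1 and Ppp1r1b at rank 2, and Tac1 had Drd2 at rank 2 and Pdyn at rank 3. Pdyn was looser, with Ppp1r1b at rank 328, and Rgs9 had Tac1 at rank 370. In the 14 brains without WT male 902 and 903 the ranks were lower: Penk had Drd2 at 5 and Ppp1r1b at 26, Drd2 had Penk at 4 and Ppp1r1b at 37, Tac1 had Drd2 at 21 and Pdyn at 22, and Pdyn had Ppp1r1b at 2165. Outside the set, the 3 genes most like each member were sought among genes above the array median. For Penk they were Rxrg, a retinoid X receptor (r = 0.93), Drd1 (0.91) and Syndig1l (0.90). For Ppp1r1b they were Rxrg (0.92), Phtf1 (0.92) and Rasd2, a striatal small GTPase (0.90), and for Drd2 Syndig1l (0.89), Scarb1 (0.88) and Mettl2 (0.88). Tac1 was most like Rasgrp2 (0.93), Drd1 (0.83) and Rxrg (0.83), Pdyn most like Fam229b (0.89), Prkar2b (0.88) and Jcad (0.87), and Rgs9 most like Spata13 (0.93), Ypel2 (0.92) and Ankrd63 (0.92). In the 14 brains without WT male 902 and 903 the nearest gene was another one in each case: Rasgrp2 for Penk (0.95), Rhot2 for Ppp1r1b (0.95), Foxp2 for Drd2 (0.94), Tor1a for Tac1 (0.93), Csrnp3 for Pdyn (0.92) and Zmym6 for Rgs9 (0.91).

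The mean of the 28 other striatal genes followed the mean of the 6 across brains, with r = 0.96 over 16 brains, 0.92 over the 14 and 0.85 over the 13 without WT female 1265. With the mean of the 28 genes as a covariate, the KO minus WT difference was 0.25 for Ppp1r1b, 0.07 for Penk and 0.01 for Drd2, near 0 for Rgs9, and below 0 for Tac1 (-0.015) and Pdyn (-0.11). That covariate comes from the same arrays and is low in the same WT brains, so smaller differences were built into this fit. The cause of the differences was not tested by it. The cerebellum mean ran against the mean of the 6, with r = -0.56 over 16 brains and -0.70 over the 14, but -0.26 over the 13 without WT female 1265. Genes of cardiac fibroblasts, a list made for the hearts, gave -0.50, -0.73 and -0.76. In the same order of 16, 14 and 13 brains, the hypothalamus mean gave 0.61, 0.57 and 0.50 and the pan-neuronal mean -0.06, -0.08 and 0.15. The midbrain dopamine mean gave -0.67, 0.04 and 0.06, so that it rested on WT male 902 and 903. Dopamine signalling genes, some of them also among the 28, gave 0.77, 0.81 and 0.70. Lists of other cells and regions moved with the 6 over the 16 brains, but less or not at all over the 13. Cerebral cortex gave 0.60, 0.46 and 0.17, microglia 0.60, 0.54 and 0.23, and atrium of the heart 0.64, 0.27 and -0.03. Chromaffin and sympathetic genes gave -0.59, -0.35 and -0.52. The values on both sides of each such correlation come from the same array, and they are descriptions.

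The wider pathway lists gave no called gene between KO and WT brains. The 6 genes had a median difference of 0.40, and the 28 other striatal genes one of 0.18, beside a median of 0.01 over all genes. Of the 28, 22 were above 0, beside 9607 of all 17097 genes. At an unadjusted limma p under 0.05, 3 of the 28 were higher and 0 lower, beside 4.1% and 1.87% of all genes. Without WT male 902 and 903 the medians of the 6 and of the 28 were 0.07 and 0.01. Then 15 of the 28 were above 0, beside 9682 of 17097 genes. At an unadjusted limma p under 0.05, 1 of the 28 was higher, beside 499 of all 17097 genes. Ptpn5, the striatum-enriched phosphatase STEP, had the smallest p of the 28 genes, at 5.90 ± 0.25 in KO and 5.40 ± 0.34 in WT brains (SD, n = 8 each). Its difference was 0.50 (SE 0.11, limma adjusted p = 0.495), and 0.46 (SE 0.13) without the low pair. The next were Meis2 (0.33), Sh3rf2 (0.44) and Bcl11b (0.31), which came to 0.18, 0.18 and 0.10 without the pair.

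Of 23 dopamine signalling genes, 2 were higher and 1 lower at an unadjusted p under 0.05, beside 4.1% and 1.87% of all genes. Their median difference was 0.03. Drd4, the D4 receptor, differed by -0.26, Gnb5, the G protein subunit that pairs with Rgs9, by 0.15, Prkar2b by 0.29 and Adcy5, the main adenylyl cyclase of striatum, by 0.26. Among 19 opioid and tachykinin genes the 4 with the smallest p were Pomc (-1.47), Tac4 (-0.13), Pcsk1 (0.26) and Tacr3 (0.11). Of the 19, 0 were higher and 1 lower at an unadjusted p under 0.05, beside those same shares of all genes. Among 9 adenosine genes, 0 reached an unadjusted p under 0.05, by limma as for the other lists, beside 5.97% of all genes. Their median difference was 0.04. Nt5e, the enzyme that makes adenosine outside the cell, differed by 0.25 and the receptor Adora3 by -0.08, and the transporters Slc29a2 and Slc28a2 by 0.10 and -0.06. Without WT male 902 and 903 the medians were -0.01 for the dopamine genes, 0.02 for the opioid and tachykinin genes and -0.03 for the adenosine genes. Nt5e then differed by 0.11, Prkar2b by 0.11, Adcy5 by 0.14 and Pomc by -0.93, while Drd4 (-0.26) and Gnb5 (0.11) moved less.

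Males were lower than females for some of these genes in brain, none past the threshold. Drd2 differed by -0.54 (SE 0.25), Ppp1r1b by -0.50 (SE 0.20) and Penk by -0.36 (SE 0.16), with limma adjusted p of 0.51, 0.435 and 0.496. Of the 6 genes 0 were called, beside 0.0994% of all genes (17 genes, and 34 in 1 fit of all 80 arrays). Both low brains are of males: without them the differences were -0.19, -0.20 and -0.09. The KO effect differed between the sexes for 0 of 6 genes, against 0% of all genes; for Ppp1r1b the difference of effects was 0.82 (SE 0.40), and 0.22 (SE 0.32) without the pair.

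Across organs, all 6 genes were highest in brain. Brain exceeded heart, kidney, liver and lung in 24 of 24 comparisons by limma over all 80 arrays. Of all genes 79.7%, 74.5%, 85.8% and 73.8% were called against heart, kidney, liver and lung, and 32.3%, 31.9%, 35.7% and 35.6% were higher in brain. Between the other organs, 66.7% of genes were called for heart against kidney, 71.2% for heart against liver, 79.1% for heart against lung, 73.5% for kidney against liver, 72.8% for kidney against lung and 85.9% for liver against lung. The median of the 1-gene probe sets itself differed between organs, from 4.53 in liver to 4.95 in brain, which is larger than some differences between neighbouring organs below. Levels are the mean and SD of 16 arrays. In this fit each gene has 1 spread for all organs, and the brain SD was the widest for every gene but Penk. Pairs of other organs that did not pass were not tested on their own spread.

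Penk was 10.85 ± 0.45 in brain and 5.68 ± 0.42 in heart, a difference of 5.18 (SE 0.13, limma adjusted p = 4.1e-47). Below heart came kidney (5.19 ± 0.35), lung (5.06 ± 0.45) and liver (4.67 ± 0.27). Heart exceeded kidney by 0.49 (limma adjusted p = 0.00049), lung by 0.61 (adjusted p = 1.43e-05) and liver by more (adjusted p = 9.02e-11), whereas kidney and lung did not differ past the threshold (0.13, limma interval -0.13 to 0.38, adjusted p = 0.372). Liver minus lung was -0.39 as deposited (limma adjusted p = 0.00372), -0.01 after median centring and 0.12 after renewed quantile normalisation.

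Tac1 was 8.78 ± 0.57 in brain and 3.87 ± 0.30 in heart, then 3.38 ± 0.18 in liver, 3.21 ± 0.14 in kidney and 3.04 ± 0.13 in lung. Heart exceeded the other 3 by 0.49 to 0.83, and liver and kidney, and kidney and lung, did not differ past the threshold. Pdyn was 4.62 ± 0.67 in brain and lay between 2.88 and 3.15 elsewhere, with no difference past the threshold among heart, kidney and liver. The table holds no detection calls, so levels this low cannot be set apart from background.

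Drd2 had its second level in heart, at 5.78 ± 0.58 against 6.46 ± 0.66 in brain. The brain and heart ranges, 5.07 to 7.29 and 4.08 to 6.65, overlapped, and the difference was 0.68 (SE 0.13, limma adjusted p = 3.8e-06). Liver (3.73 ± 0.16), kidney (3.50 ± 0.17) and lung (3.40 ± 0.11) were lower than heart by 2.05 to 2.38. Ppp1r1b had its second level in kidney, at 7.26 ± 0.34 against 8.67 ± 0.61 in brain. It exceeded liver (5.20 ± 0.42), heart (4.88 ± 0.36) and lung (4.83 ± 0.17) by 2.06 to 2.43, and heart and lung did not differ past the threshold. Rgs9 had its second level in lung, at 5.11 ± 0.34 against 6.69 ± 0.76 in brain, above liver (4.13 ± 0.28), kidney (3.90 ± 0.15) and heart (3.85 ± 0.18). Against lung these differed by -0.98, -1.21 and -1.26. Among themselves they did not differ past the threshold of the joint fit, whose spread takes in that of the brain.

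**Figure D4:**
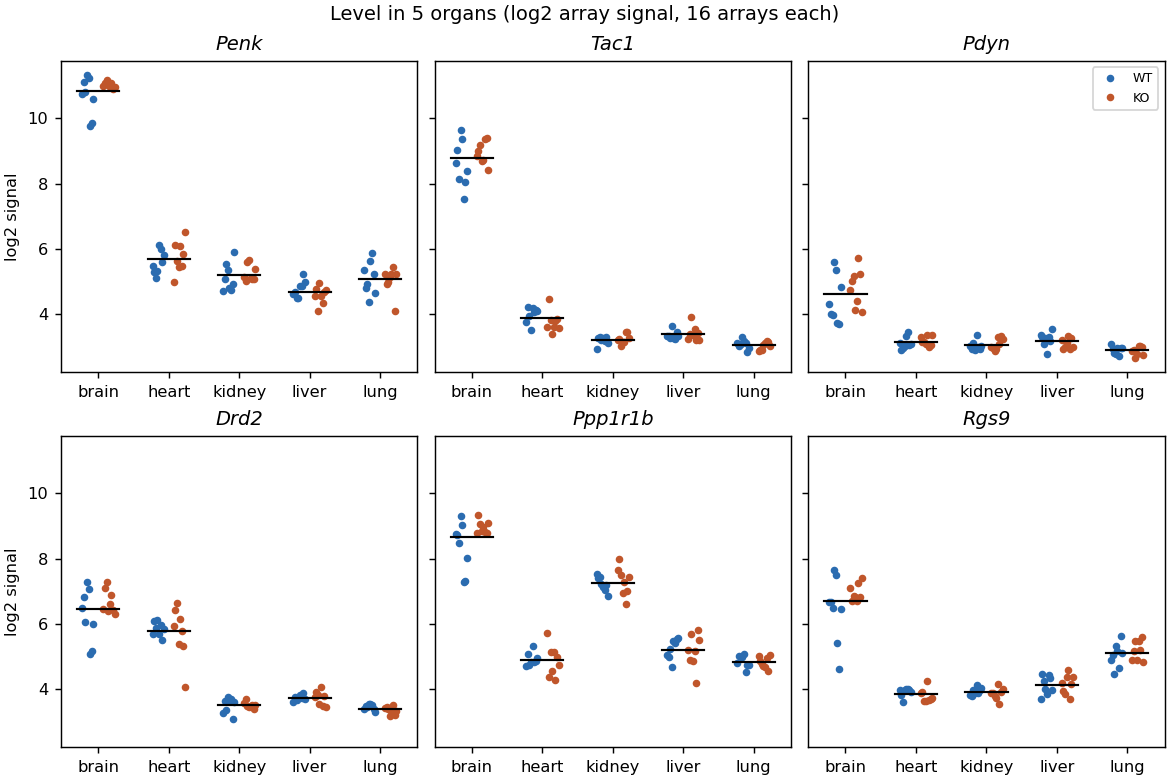
Log2 signal of the 6 genes in 16 arrays of each of 5 organs, WT and KO apart, with the mean of all 16 as a line. Brain is highest for each gene; heart is second for Penk, Tac1 and Drd2, kidney for Ppp1r1b (mean 7.26) and lung for Rgs9 (mean 5.11).

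In heart, Penk read 5.11 to 5.48 in the 4 WT females and 5.58 to 6.10 in the 4 WT males. The WT sexes thus did not overlap. KO females ran from 4.99 (781) to 6.12 (982) and KO males from 5.48 (962) to 6.52 (1259), which did overlap. Over both genotypes males were higher by 0.51 (SE 0.16, limma adjusted p = 0.228), where 0.269% of all genes were called (46 genes, and 130 in 1 fit of all 80 arrays) and 0 of the 6 in either fit. KO minus WT was 0.18 (SE 0.16), and 0.28 (SE 0.11) without the 5 hearts that held lung or liver marker genes. The low female and low male of the KO group are among those 5 hearts, as is the high female, and the part of those markers in the Penk values was not tested. Markers of chromaffin cells and sympathetic neurons, another source of Penk, averaged between 3.93 and 4.36 in all hearts. The 3 genes most like Penk over the 16 hearts were Tagap (r = 0.81), Rhd (0.76) and Pqlc3 (0.75).

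Drd2 in heart ran from 5.50 to 6.12 in 8 WT hearts and from 4.08 (KO male 1259) to 6.65 (KO female 985) in 8 KO hearts. The KO range enclosed the WT range. KO minus WT was -0.13 (SE 0.24), and 0.08 without KO male 1259. Of the 6 genes 0 were called between KO and WT in heart, kidney, liver or lung, where 1, 0, 1 and 1 genes in all were called (0.00585%, 0%, 0.00585% and 0.00585%). Whether the KO effect differed between organs was tested over all 80 arrays, and 0 of 6 genes passed against 0.0292% of all genes; Ppp1r1b had the smallest unadjusted limma p, 0.0499 (adjusted p = 1.0).

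In kidney, Ppp1r1b read 6.94 to 7.99 in 8 females and 6.62 to 7.43 in 8 males. Males were lower by 0.39 on average (difference -0.39, SE 0.13, limma adjusted p = 0.045). Pdyn was higher in male kidneys by 0.19 (SE 0.07, limma adjusted p = 0.0459), at levels of about 3. Both calls stood just inside the threshold in an organ where 21.6% of all genes were called between the sexes, and each was lost in 12 of 16 fits that left out 1 kidney. In 1 fit of all 80 arrays neither was called: the limma adjusted p was 0.131 for Ppp1r1b and 0.509 for Pdyn, and 0.126 and 0.513 with the animal as a block as well. That fit shares 1 spread per gene with brain, where the SD was 0.61 for Ppp1r1b and 0.67 for Pdyn, against 0.34 and 0.16 in kidney. It therefore says little about the spread of kidneys.

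**Figure D5:**
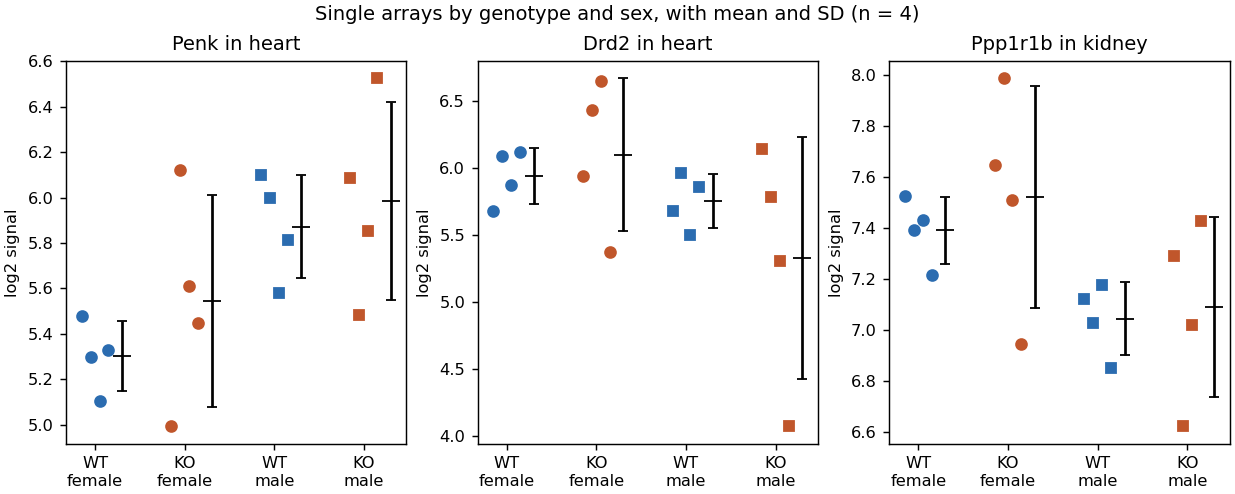
Log2 signal of Penk and Drd2 in heart and of Ppp1r1b in kidney, by genotype and sex, with the mean and SD of 4 arrays beside each group. WT male hearts lie above WT female hearts for Penk, and KO male 1259 lies lowest for Drd2 at 4.08.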

How the data were processed

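The values were log2 signals deposited by the authors for 80 arrays, 1 per organ and animal. Per the submitters' processing notes they came from Affymetrix Expression Console, RMA and Partek; whether all arrays were normalised together is not given in the sources used here. Of 45141 probe sets, 104 were controls, 28898 named 1 gene, 551 several and 15588 none in GEO's platform annotation. The probe set with the highest mean stood for each of 17097 genes. Groups of genotype and sex were fitted within an organ with limma 3.58.1 in R 4.3.3 (lmFit, eBayes), organs in 1 fit of 20 groups, with Benjamini-Hochberg adjustment over all genes and a threshold of 0.05. The test was checked on simulated data. Correlations used 100000 permutations (all orders for 8 brains) in Python 3.11.15 with numpy 2.4.6, over 15 pairs in place of the planned 21, since Adora2a was not analysed here.

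The members and gene lists were chosen with earlier results of these data known. Of 377 list entries, 329 were measured. Genes named beside the members are, by rule, the 3 most alike in brain (for Penk also in heart) and the 4 of a list with the smallest p in brain; Drd1, Gabra6, Pcp2 and Cbln3 were named after their values were seen. Animal numbers pair organs: deviations of 2 organs of 1 animal correlated with a median r of 0.10 over 132 pairs, lowest -0.11, against -0.01 over other pairs. No 2 arrays were identical. Promoter sequences are RefSeq's, GRCm38.p6. Alternatives covered normalisation, probe sets, filters, blocks and arrays left out. The number of arrays limits the precision.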

Additional observations from a re-analysis of the deposited data

Results flagged for a closer look

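In 9 of 120 groups of 4 arrays, 1 array lay far from the other 3 by Dixon's test of the gap over the range; chance flags about 1 in 20 groups. In brain this was Rgs9 in WT female 1265, at 7.66 against 6.48 to 6.67 in the other WT females. In heart it was Rgs9 in KO male 952, at 4.25 against 3.67 to 3.72. In kidney, Penk stood out in KO male 1259, at 5.38 against 5.06 to 5.10, and in WT male 1262, at 5.90 against 4.73 to 4.92, and Drd2 in WT male 903, at 3.08 against 3.59 to 3.68. In lung the arrays were Ppp1r1b in WT female 876 at 4.79, Tac1 in KO female 1898 at 3.05, and Pdyn in KO male 1871 at 2.73 and in WT male 1262 at 2.72. The low brains of WT males 902 and 903 are a pair within a group of 4, and neither had a gap past the limit in brain.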

How the results depend on the processing

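For KO minus WT in brain, 0 of the 6 genes were called under any alternative. Without 1 brain, Ppp1r1b ranged from 0.49 to 0.77 and Penk from 0.24 to 0.49. Under the other alternatives Ppp1r1b ranged from 0.18 (females alone) to 1.001 (males alone). The mean of the other striatal genes as a covariate, which follows the 6 genes on the same arrays, turned the sign of Tac1 (-0.015) and Pdyn (-0.11). Leaving out WT male 902 and 903, chosen after seeing the data, turned the male minus female difference of Tac1 (0.033) and Rgs9 (0.14), which were 0.16 and 0.27 without WT female 1265 as well; for Pdyn it ran from -0.15 to 0.20 without 1 brain. Heart Drd2 was 0.16 in females alone and ran from -0.27 to 0.077 without 1 heart. Of 15 correlated pairs, 2 passed in KO brains alone and 7 without WT males 902 and 903 and WT female 1265 (also chosen after seeing the data). In KO brains Ppp1r1b gave r = -0.27 with Tac1, -0.14 with Pdyn and -0.16 with Rgs9, and Rgs9 gave -0.23 with Drd2, -0.26 with Tac1 and -0.072 with Pdyn.

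Between the sexes in kidney, 2 genes of the set were called as deposited, 0 after renewed quantile normalisation, 1 after median centring, 1 among genes above the array median, and 0 to 1 without 1 kidney. Between organs, heart minus kidney for Rgs9 became 0.037 (mean of probe sets) and 0.071 (median centring), heart minus liver for Pdyn 0.021 (quantile) and 0.028 (without 5 hearts), and liver minus lung for Penk 0.12 (quantile). In each case the cause was not tested.

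With the animal as a replicate block, all 24 comparisons of brain with another organ kept their call, 0 genes of the set were called between KO and WT in brain, and 0 between the sexes in kidney. That fit also joins all 80 arrays, and the joint fit without the block, added after seeing the data, gave nearly the same counts over all genes. For KO minus WT, the fit within the organ, the joint fit and the joint fit with the block called 0, 13 and 14 genes in brain, 1, 5 and 5 in heart, 0, 1 and 1 in kidney, 1, 22 and 21 in liver and 1, 2 and 3 in lung. Between the sexes they called 17, 34 and 30 in brain, 46, 130 and 130 in heart, 3701, 2818 and 2834 in kidney, 848, 2919 and 2958 in liver and 9, 23 and 24 in lung.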

Other observations

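Pomc, the precursor of ACTH and beta-endorphin, which the pituitary and a few hypothalamic neurons make, varied more among WT brains than any of the 6 striatal genes. It was 4.13 ± 0.43 in KO and 5.60 ± 1.82 in WT brains (SD, n = 8 each), and read 8.92 in WT male 902. The KO minus WT difference was -1.47 (SE 0.60, limma adjusted p = 0.802), and -0.93 without WT male 902 and 903. The mean of 7 pituitary genes, Pomc among them, ran from 3.203 to 5.80 over the 14 brains other than WT male 902 and 903, where it was 4.28 and 3.90.

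Pmch, the hypothalamic melanin-concentrating hormone precursor, was 7.37 in WT male 902 and 3.71 in WT male 903, and between 3.50 and 8.997 in the other brains. Choroid plexus genes set the pair apart from each other. Their mean was 6.90 for WT male 902, above all other brains, and 4.96 for WT male 903, below all others, which spanned 5.67 to 6.49.

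In heart, the genes most like Drd2 over the 16 arrays, looked up after its values were seen, were Trim7 (r = 0.89), Srrt (0.87) and Spef1 (0.85).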
